A study of Mus musculus with 9 samples.

Results

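The receptor machinery for protein uptake in the kidney was followed through cisplatin injury in 8 genes, Lrp2, Cubn, Amn, Dab2, Fcgrt, Clcn5, Ocrl and Lrpap1, which were taken by name from the 55385 gene IDs measured in each library. All 8 matched an ID and all 8 passed the filter for testing, which kept 13718 genes with at least 1 FPKM (fragments scaled by transcript length and by the mapped fragments of the library) in at least 3 of the 9 libraries. The libraries are bulk RNA sequencing of whole kidney from C57BL/6 mice, an inbred strain with no engineered allele named in the labels. The Cis3d group was taken 3 days and the Cis7d group 7 days after an intraperitoneal injection of cisplatin, a platinum drug that is toxic to the tubule, at 20 mg per kg of body weight. The Sham group received the same volume of saline, and no label gives its day of collection or the age and sex of the mice. Each group has 3 libraries, described by the submitters as biological repeats, and the labels record no pooling of animals.

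Megalin, the product of Lrp2, is a very large endocytic receptor on the brush border of the proximal tubule. It works with cubilin, the product of Cubn, which has no membrane-spanning segment of its own and is carried to the cell surface by amnionless, the product of Amn. Together they take up filtered albumin, vitamin carriers, hormones and drugs such as aminoglycosides, so that little protein reaches the urine. Dab2 is the clathrin adaptor that binds the megalin tail, and the receptor-associated protein encoded by Lrpap1 is the chaperone that keeps new megalin from binding ligands in the endoplasmic reticulum. Further inside the cell, the exchanger encoded by Clcn5 moves chloride and protons in endosomes, the lipid phosphatase encoded by Ocrl acts on endosomal phosphoinositides, and loss of either in people gives Dent disease with protein loss in the urine. Fcgrt encodes the heavy chain of the neonatal Fc receptor, which binds albumin and IgG in acid endosomes and returns them from degradation.

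For Lrp2, Cubn and Amn the sequence just upstream of the annotated start is shown. All 3 fell in Cis3d against Sham and rose in Cis7d over Cis3d, as described below. Lrpap1 took the same course, and its upstream sequence is not shown. The sequences are from RefSeq promoter windows on GRCm38.p6, cut to the bases before the start. They read 5′ to 3′ on the strand of the gene, with capitals marking matches to the 4 motifs searched. The Lrp2 run is chr2:69586066-69586279 on the minus strand, the Cubn run is chr2:13491877-13492126 on the minus strand and the Amn run is chr12:111270846-111271094 on the plus strand.
Lrp2: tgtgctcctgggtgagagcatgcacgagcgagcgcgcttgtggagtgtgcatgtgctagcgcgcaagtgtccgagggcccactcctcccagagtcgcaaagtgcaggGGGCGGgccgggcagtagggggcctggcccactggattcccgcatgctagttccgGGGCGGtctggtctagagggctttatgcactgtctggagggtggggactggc
Cubn: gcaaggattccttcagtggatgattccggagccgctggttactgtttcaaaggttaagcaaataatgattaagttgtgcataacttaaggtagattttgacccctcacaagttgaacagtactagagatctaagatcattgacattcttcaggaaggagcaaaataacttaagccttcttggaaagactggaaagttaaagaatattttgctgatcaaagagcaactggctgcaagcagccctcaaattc
Amn: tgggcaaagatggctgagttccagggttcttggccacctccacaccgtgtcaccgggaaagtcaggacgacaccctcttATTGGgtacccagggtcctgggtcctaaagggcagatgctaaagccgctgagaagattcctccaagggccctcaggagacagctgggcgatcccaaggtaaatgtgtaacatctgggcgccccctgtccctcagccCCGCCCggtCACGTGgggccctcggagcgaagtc
The motifs were the GC box (GGGCGG), the CCAAT box (CCAAT), the E-box (CACGTG) and a partial site of the hepatocyte nuclear factor HNF1 (GTTAAT), each searched on both strands. The Lrp2 run holds 2 GC boxes, the Amn run holds a GC box, a CCAAT box and an E-box, and the Cubn run holds none of the 4. The runs also differ in base composition, with 65.9% G and C upstream of Lrp2, 39.6% upstream of Cubn and 61.0% upstream of Amn. Among 32851 RefSeq promoter windows of 300 bases, which reach 250 bases before and 50 after the start, 35.7% held a GC box, 37.4% a CCAAT box, 7.15% an E-box and 7.1% the HNF1 partial site. A match is a match of letters and was not tied to binding of any factor.

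Libraries of a group differed in several of the 8 genes at once. The highest value of a group came from Cis7d replicate 3 in 7 of the 8 genes, from Cis3d replicate 1 in 6 and from Sham replicate 3 in 6, and the lowest came from Cis3d replicate 2, Cis7d replicate 1 and Sham replicate 1 in 5 each. Where leaving out 1 library changes a call on the 8 genes, that is stated beside the result. FPKM summed to between 421810 and 509537 per library, between 11647 and 13183 genes reached 1 FPKM, and mitochondrial transcripts took 27.1% to 31.8% of FPKM in Cis3d, 31.7% to 32.6% in Cis7d and 25.6% to 27.3% in Sham libraries. The number of reads is unknown, since the files hold FPKM, and no counting interval is given. No 2 libraries held identical values. The tissue label was checked with 18 markers of the proximal tubule, none of which was at 0 in all libraries, and their FPKM summed to 440 to 540 in Cis3d, 2793 to 3233 in Cis7d and 3028 to 4334 in Sham libraries.

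Differences between groups were tested with limma, a linear model with moderated variances, on log2(FPKM + 1) over all tested genes and all 9 libraries, two-sided, and p-values were adjusted over all of those genes by the Benjamini-Hochberg method. A gene was called at an adjusted p below 0.05. Fold changes on this scale are understated for weakly expressed genes. In the Cis3d against Sham comparison 5 of the 8 genes fell and none rose, where 59.9% of all tested genes were called, 39.3% higher and 20.6% lower. In the Cis7d against Sham comparison 1 of the 8 rose and 2 fell, where 29.7% of all tested genes were called, 19.3% higher and 10.4% lower. In the Cis7d against Cis3d comparison 6 of the 8 rose and none fell, where 55.4% were called, 21.7% higher and 33.7% lower. The median log2 difference of the 8 genes was -1.35, 0.24 and 1.36 in these 3 comparisons, and the median of all tested genes was 0.25, 0.06 and -0.16. The split of all calls depends on scaling. In Cis3d against Sham 65.6% of calls were higher, and 49.5% with median-of-ratios scaling, which moved the median of all genes to 0.01. Cis3d and Cis7d were each compared with the same Sham libraries, so these comparisons are not independent of each other.

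Megalin and cubilin had the largest changes of the 8 genes in Cis3d against Sham and in Cis7d against Cis3d. Lrp2 (chr2:69424340-69586065, minus strand, coordinates here and below from GENCODE M21 on GRCm38, longest transcript 15460 nt) was at 9.29, 8.34 and 14.3 FPKM in Cis3d kidneys, at 102, 116 and 129.6 FPKM in Cis7d kidneys and at 37.7, 82.7 and 100.01 FPKM in Sham kidneys. All Cis3d values lay below all Sham values, all Cis7d values lay above them, and the Sham group had the widest spread, with replicate 1 lowest. The means were 10.6 ± 3.2 FPKM in Cis3d, 116 ± 13.5 FPKM in Cis7d and 73.5 ± 32.2 FPKM in Sham (SD, n = 3 each). Lrp2 thus fell in Cis3d to 14.5% of the Sham mean, a log2 difference of -2.60 ± 0.34 (limma, SE, adjusted p = 0.000243). In Cis7d kidneys it was 10.9-fold the Cis3d mean, a rise of 3.36 ± 0.34 on the log2 scale (limma, adjusted p = 8.27e-05). The Cis7d mean was 158% of the Sham mean, with a log2 difference of 0.76 ± 0.34 that did not pass (limma, adjusted p = 0.125). Without Sham replicate 1 that difference was 0.34 (limma, adjusted p = 0.294). In bulk tissue, fewer proximal tubule cells and less RNA per cell cannot be told apart, and this holds for each lower value below.

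Cubn (chr2:13276338-13491813, minus strand, longest transcript 11262 nt) was at 3.1, 1.57 and 2.21 FPKM in Cis3d kidneys, at 23.6, 27.2 and 28.8 FPKM in Cis7d kidneys and at 19.0, 25.4 and 27.95 FPKM in Sham kidneys. The Cis3d values lay far below both other groups, and the Cis7d and Sham values overlapped. The means were 2.29 ± 0.768 FPKM in Cis3d, 26.5 ± 2.68 FPKM in Cis7d and 24.1 ± 4.62 FPKM in Sham (SD, n = 3 each). Cubn fell in Cis3d to 9.52% of the Sham mean, with a log2 difference of -2.94 ± 0.20 (limma, adjusted p = 1.04e-05). Its Cis7d mean was 11.6-fold the Cis3d mean, a rise of 3.08 ± 0.20 on the log2 scale (limma, adjusted p = 9.68e-06). Cis7d against Sham gave 0.15 ± 0.20 (limma, adjusted p = 0.619). The antisense transcript Gm13270, whose exons overlap those of Cubn, was at 0.04 to 0.18 FPKM across the 9 libraries.

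Amn, the carrier of cubilin (chr12:111271095-111276426, plus strand, longest transcript 1701 nt), was at 7.13, 6.76 and 6.26 FPKM in Cis3d kidneys, at 20.8, 19.7 and 20.9 FPKM in Cis7d kidneys and at 22.5, 36.7 and 37.0 FPKM in Sham kidneys. The 3 groups did not overlap, and Cis7d lay between the other groups. Amn fell in Cis3d by 2.07 ± 0.18 on the log2 scale to 20.9% of the Sham mean (limma, adjusted p = 3.28e-05). It rose in Cis7d over Cis3d by 1.48 ± 0.18, a ratio of the means of 3.05 (limma, adjusted p = 0.000205). In Cis7d it was lower than in Sham at 63.8% of the mean, with a log2 difference of -0.59 ± 0.18 (limma, adjusted p = 0.0381). That last call was lost in 13 of 20 alternative settings, among them leaving out any 1 library other than Cis3d replicate 1 or Sham replicate 1. A correction for GC content and transcript length gave -0.02 (limma, adjusted p = 0.961).

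**Figure D1:**
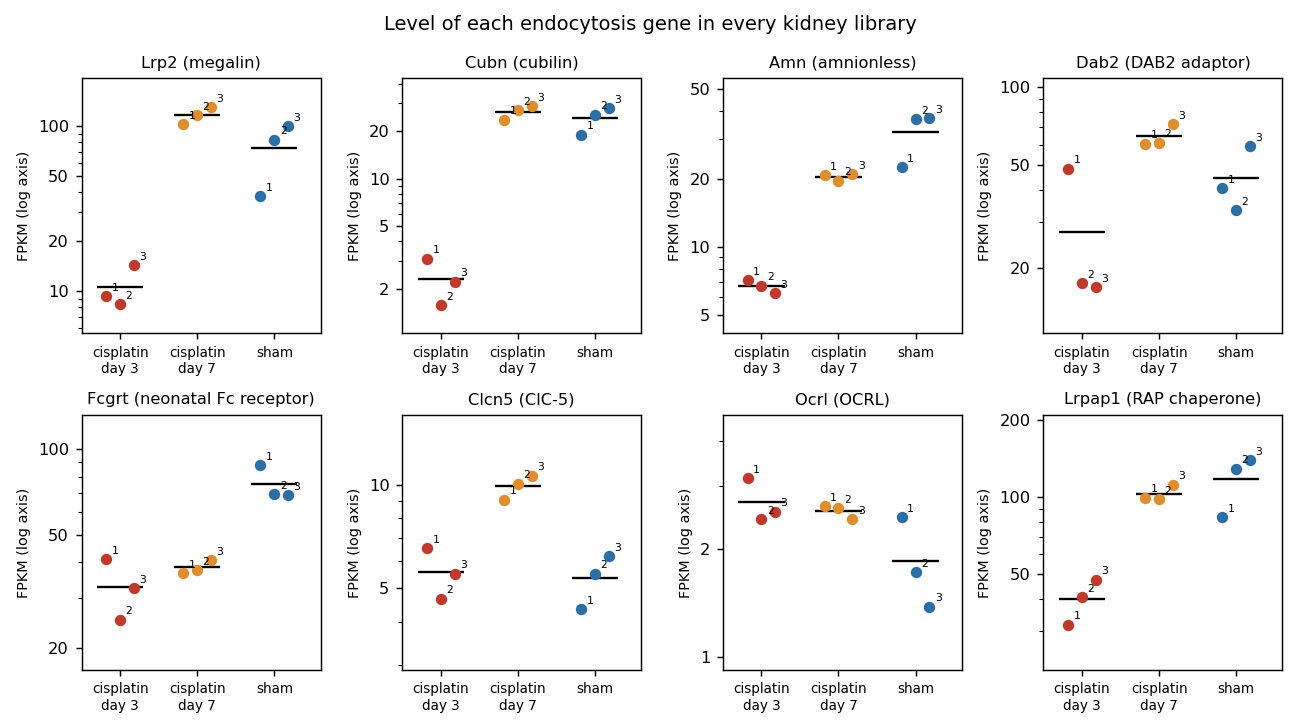
FPKM on a log axis for each of the 8 genes in every library, with Cis3d (cisplatin day 3), Cis7d (cisplatin day 7) and sham from left to right; points are libraries numbered by replicate and bars are group means. Lrp2 at 8.34 to 14.3 FPKM and Cubn at 1.57 to 3.1 FPKM in Cis3d lie below every other library, Dab2 in Cis3d replicate 1 stands above the other 2 Cis3d libraries, and Ocrl overlaps in all groups.

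Ratios among the receptors and their partners were taken within each library, and none of the 9 comparisons of ratios passed. The ratio of Cubn to Amn was 0.435, 0.232 and 0.353 in Cis3d kidneys, 1.13, 1.38 and 1.38 in Cis7d kidneys and 0.843, 0.691 and 0.756 in Sham kidneys. Groups did not overlap in the deposited values, with Cis3d lowest and Cis7d highest. The order of Cis7d and Sham did not hold after the GC content and length correction, where the log2 difference of Cis7d against Sham was -0.23 for Cubn and -0.02 for Amn. The log2 ratio differed by -1.21 in Cis3d against Sham, by 0.76 in Cis7d against Sham and by 1.97 in Cis7d against Cis3d. Each had p = 0.1 in a two-sided exact permutation test and 0.129 after adjustment over the 9 comparisons of ratios, and 0.1 is the smallest p that 3 libraries against 3 allow. The ratio of Lrp2 to Lrpap1, the receptor to its chaperone, was 0.292, 0.205 and 0.3 in Cis3d kidneys, 1.03, 1.18 and 1.16 in Cis7d kidneys and 0.452, 0.642 and 0.72 in Sham kidneys, again without overlap and with the same exact permutation p of 0.1 in each comparison. The ratio of Lrp2 to Cubn was 3, 5.31 and 6.47 in Cis3d, 4.35, 4.28 and 4.5 in Cis7d and 1.99, 3.26 and 3.58 in Sham kidneys. There Cis3d overlapped both other groups, and the exact permutation p was 0.3 for Cis3d against Sham, 0.1 for Cis7d against Sham and 0.8 for Cis7d against Cis3d.

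Lrpap1, the chaperone (chr5:35091501-35105766, minus strand), was at 31.9, 40.7 and 47.7 FPKM in Cis3d kidneys, at 99.5, 98.1 and 112 FPKM in Cis7d kidneys and at 83.3, 129 and 139 FPKM in Sham kidneys. Cis3d lay below both other groups, which overlapped. It fell in Cis3d by 1.51 ± 0.21 on the log2 scale to 34.3% of the Sham mean (limma, adjusted p = 0.000361) and rose in Cis7d over Cis3d by 1.36 ± 0.21 (limma, adjusted p = 0.000746). Cis7d against Sham gave -0.15 ± 0.21 (limma, adjusted p = 0.631).

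Dab2, the adaptor (chr15:6299788-6440712, plus strand), was at 48.4, 17.5 and 16.8 FPKM in Cis3d kidneys, at 60.6, 61.0 and 72.1 FPKM in Cis7d kidneys and at 40.7, 33.4 and 59.2 FPKM in Sham kidneys. Cis3d replicate 1 lay within the Sham range while the other 2 Cis3d libraries lay below it, and all Cis7d values lay above all Sham values. Over all libraries the Cis3d against Sham difference was -0.80 ± 0.38 (limma, adjusted p = 0.0954). Without Cis3d replicate 1 it was -1.29 and passed (limma, adjusted p = 0.00177). Dab2 rose in Cis7d over Cis3d by 1.37 ± 0.38, or 2.34-fold in the means (limma, adjusted p = 0.0138), a call lost without Cis3d replicate 2, where the difference was 1.14 (limma, adjusted p = 0.0525). Cis7d against Sham gave 0.56 ± 0.38 (limma, adjusted p = 0.292). The pseudogene Gm18888, whose exons overlap those of Dab2 on the opposite strand, was listed at 0 to 0.17 FPKM.

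A few other genes of the proximal tubule, chosen after their values were seen, split the Cis3d libraries in the same way as Dab2. The amino acid transporter Slc7a8 was at 40.0, 12.7 and 12.4 FPKM in Cis3d replicates 1, 2 and 3. The bicarbonate cotransporter Slc4a4 was at 30.3, 6.75 and 8.0 FPKM, and the vitamin D receptor Vdr at 41.0, 14.1 and 13.8 FPKM. The phosphate transporter Slc34a1 went the other way, at 9.83, 37.3 and 45.4 FPKM. Replicate 1 was also the lowest Cis3d library for Slc5a2, Slc22a6, Slc22a8, Slc22a12, Slc3a1, Slc13a1, Slc13a3, Ggt1 and Aqp1. With Slc34a1 these were most of the 18 proximal tubule markers, so the split seen in Dab2 was not the usual one. The part of these genes in the Dab2 result was not tested.

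Fcgrt (chr7:45092990-45103851, minus strand, longest transcript 1770 nt) was at 41.0, 25.1 and 32.4 FPKM in Cis3d kidneys, at 36.7, 37.6 and 40.8 FPKM in Cis7d kidneys and at 88.1, 69.6 and 68.9 FPKM in Sham kidneys. Both cisplatin groups lay below every Sham library, and they overlapped each other. Fcgrt fell in Cis3d by 1.20 ± 0.18 on the log2 scale, to 43.4% of the Sham mean (limma, adjusted p = 0.000507). It was also lower in Cis7d than in Sham, at 50.7% of the mean, with a log2 difference of -0.95 ± 0.18 (limma, adjusted p = 0.00602). Cis7d against Cis3d gave 0.24 ± 0.18 (limma, adjusted p = 0.276), where the receptor genes above had risen. The light chain that Fcgrt pairs with, B2m, was at 447 ± 22.3 FPKM in Cis3d, 291 ± 122 FPKM in Cis7d and 411 ± 143 FPKM in Sham (SD, n = 3 each) and was not called in any comparison (limma, adjusted p = 0.639 for Cis3d against Sham, 0.232 for Cis7d against Sham and 0.0824 for Cis7d against Cis3d). Fcgrt is also known in endothelium and macrophages. The FPKM of 10 endothelial markers summed to 69.7 to 175 in Cis3d, 84.1 to 121 in Cis7d and 133 to 176 in Sham, and that of 10 macrophage markers to 133 to 208, 44.2 to 129 and 85.3 to 95.4 in the same groups, with no marker at 0 in all libraries. In Cis3d against Sham 1 endothelial marker of 10 tested was higher and 3 lower. Of the 7 macrophage markers that reached 1 FPKM in more than 1 group, 1 was higher and 4 were lower. The higher one was Cd68, at 98.5 ± 13.7 FPKM in Cis3d and 4.38 ± 0.651 FPKM in Sham. The lower ones were Csf1r, C1qa, C1qb and Cx3cr1. The part of these cell types in the Fcgrt result was not tested.

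Clcn5 (chrX:7153810-7319358, minus strand, longest transcript 8390 nt) was at 6.53, 4.67 and 5.52 FPKM in Cis3d kidneys, at 9.04, 10.1 and 10.6 FPKM in Cis7d kidneys and at 4.35, 5.52 and 6.21 FPKM in Sham kidneys. Cis3d and Sham overlapped, and Cis7d lay above both. Cis3d against Sham gave 0.05 ± 0.15 (limma, adjusted p = 0.796). In Cis7d the gene rose over Sham by 0.79 ± 0.15 on the log2 scale, to 185% of the mean (limma, adjusted p = 0.00647), and over Cis3d by 0.74 ± 0.15 (limma, adjusted p = 0.00312). Its relatives were Clcn3 and Clcn4, which also act in endosomes, and Clcn7 of the lysosome. Clcn4 was at 11 ± 0.629 FPKM in Cis7d and 6.84 ± 0.485 FPKM in Sham and rose by 0.61 ± 0.10 (limma, adjusted p = 0.00373). Clcn3 was at 6.69 ± 1.65 FPKM in Cis7d and 3.15 ± 1.67 FPKM in Sham and rose by 0.95 ± 0.28 (limma, adjusted p = 0.0352), a call lost in 11 of 20 alternatives, among them leaving out any 1 Cis7d library, Sham replicate 1 or 2, or Cis3d replicate 2. Clcn7 was at 9.4 ± 0.435 FPKM in Cis7d and 10.7 ± 0.909 FPKM in Sham, a difference of -0.17 ± 0.10 (limma, adjusted p = 0.245). Against Cis3d, where it was at 15.1 ± 0.545 FPKM, Clcn7 was lower in Cis7d by a log2 difference of -0.63 ± 0.10 (limma, adjusted p = 0.000812).

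Ocrl (chrX:47912387-47965868, plus strand) had the lowest mean of the 8 genes in Cis7d and Sham kidneys. It was at 3.15, 2.42 and 2.54 FPKM in Cis3d kidneys, at 2.63, 2.6 and 2.42 FPKM in Cis7d kidneys and at 2.45, 1.72 and 1.38 FPKM in Sham kidneys. The ranges overlapped through Sham replicate 1, the highest Sham value. No comparison passed, with 0.39 ± 0.15 for Cis3d against Sham (limma, adjusted p = 0.0508), 0.33 ± 0.15 for Cis7d against Sham (limma, adjusted p = 0.129) and -0.06 ± 0.15 for Cis7d against Cis3d (limma, adjusted p = 0.773). Without Sham replicate 1 it was higher in Cis3d by 0.54 (limma, adjusted p = 0.00843) and in Cis7d by 0.48 (limma, adjusted p = 0.0316). Over 19 alternatives the Cis3d against Sham difference ran between 0.10 and 0.55 and was called in 4. That of Cis7d against Sham ran between 0.05 and 0.48 and was called in 2. The median of all tested genes was 0.25 and 0.06 in these comparisons. The Ocrl paralogue Inpp5b moved otherwise, with 8.25 ± 3.0 FPKM in Cis3d, 18.5 ± 0.709 FPKM in Cis7d and 15.8 ± 5.58 FPKM in Sham. Inpp5b fell in Cis3d against Sham by 0.85 ± 0.29 (limma, adjusted p = 0.0294), a call lost in 9 of 20 alternatives, among them leaving out replicate 2 or 3 of either group. It rose in Cis7d over Cis3d by 1.12 ± 0.29 (limma, adjusted p = 0.00936). Appl1, an endosomal adaptor that binds the Ocrl protein, was at 4.29 ± 0.869 FPKM in Cis3d, 3.16 ± 0.428 FPKM in Cis7d and 1.71 ± 0.435 FPKM in Sham. It rose in Cis3d by 0.96 ± 0.16 (limma, adjusted p = 0.000979) and in Cis7d by 0.62 ± 0.16 (limma, adjusted p = 0.0213), both against Sham, and the second call was lost without Cis7d replicate 2 or Sham replicate 2 or 3.

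**Figure D2:**
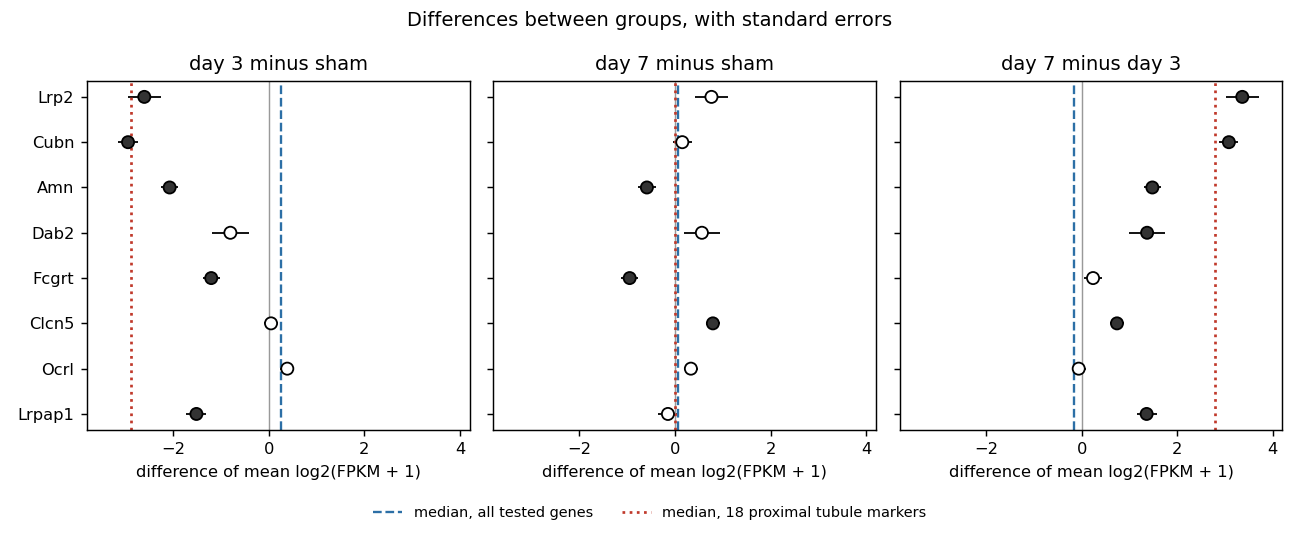
Differences of mean log2(FPKM + 1) for the 8 genes, with limma standard errors, in Cis3d minus Sham, Cis7d minus Sham and Cis7d minus Cis3d; filled points were called. The dashed line is the median of all tested genes and the dotted line the median of the 18 proximal tubule markers. In the first panel Lrp2 at -2.60 and Cubn at -2.94 lie near the dotted line at -2.87. Clcn5 lies there at 0.05 and Ocrl at 0.39, beside the dashed line at 0.25.

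The calls in Cis7d against Sham were the least stable. After removal of the trend with GC content and transcript length in each library, none of the 8 genes was called, and 965 of 13707 genes with those values were called, where 4075 had been called without it. Fcgrt then had a log2 difference of -0.45 (limma, adjusted p = 0.169) and Clcn5 one of 0.32 (limma, adjusted p = 0.158). The longest transcripts of Amn and Fcgrt, which were lower, hold 62.9% and 55.9% G and C, and that of Clcn5, which was higher, holds 44.7%.

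Ordered by mean FPKM, Lrpap1 was highest in Sham kidneys, followed by Fcgrt, Lrp2, Dab2, Amn and Cubn, each overlapping the next in range, and then by Clcn5 and Ocrl, which stood apart. In Cis3d kidneys Lrpap1, Fcgrt and Dab2 led with overlapping ranges, Lrp2 came next, Amn and Clcn5 overlapped below it, and Ocrl and Cubn overlapped at the bottom. In Cis7d kidneys Lrp2 and Lrpap1 led with overlapping ranges, and Dab2, Fcgrt, Cubn, Amn, Clcn5 and Ocrl followed with no overlap between neighbours. Groups of Cis3d and Sham did not overlap for 5 of the 8 genes, of Cis7d and Sham for 5, and of Cis7d and Cis3d for 6, where 64%, 48.7% and 64.4% of all tested genes did not overlap in these comparisons.

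Most of these genes are best known in the proximal tubule, so their levels were set beside 18 other transcripts of those cells, mostly solute transporters. The mean log2(FPKM + 1) of these markers was 3.78, 3.86 and 4.08 in Cis3d libraries, 6.52, 6.50 and 6.65 in Cis7d libraries and 6.12, 6.57 and 6.69 in Sham libraries. Of the 18 markers, 15 fell and none rose in Cis3d against Sham, 3 rose and none fell in Cis7d against Sham, and 18 rose in Cis7d against Cis3d. Their median log2 differences were -2.87, 0.00 and 2.78. Lrp2 less the marker mean differed by -0.04 between Cis3d and Sham, and Cubn less the marker mean by -0.38. Amn, Lrpap1, Fcgrt and Dab2 were higher relative to the markers in Cis3d than in Sham, by 0.49, 1.05, 1.36 and 1.75 log2 units. Clcn5 and Ocrl, which were not called in Cis3d against Sham, were higher by 2.61 and 2.95. The marker mean itself differed by -2.56, so a gene without change would also stand higher by that amount. Among single markers, 11 of 18 had a more negative Cis3d against Sham difference than Lrp2, 8 than Cubn, 13 than Amn and 18 than Ocrl.

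In Cis7d the order relative to the markers was another. Lrp2 less the marker mean was 0.66 higher in Cis7d than in Sham and Cubn 0.04 higher. Clcn5 was 0.69 and Dab2 0.46 higher, and the differences of Amn and Fcgrt were -0.69 and -1.05. The Fcgrt difference in Cis7d against Sham, at -0.95, was below that of each of the 18 markers, which ran between -0.86 and 1.76. These are values within libraries with no test and without the GC content and length correction. With it, the Cis7d against Sham difference was -0.45 for Fcgrt, -0.02 for Amn and 0.32 for Clcn5.

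**Figure D3:**
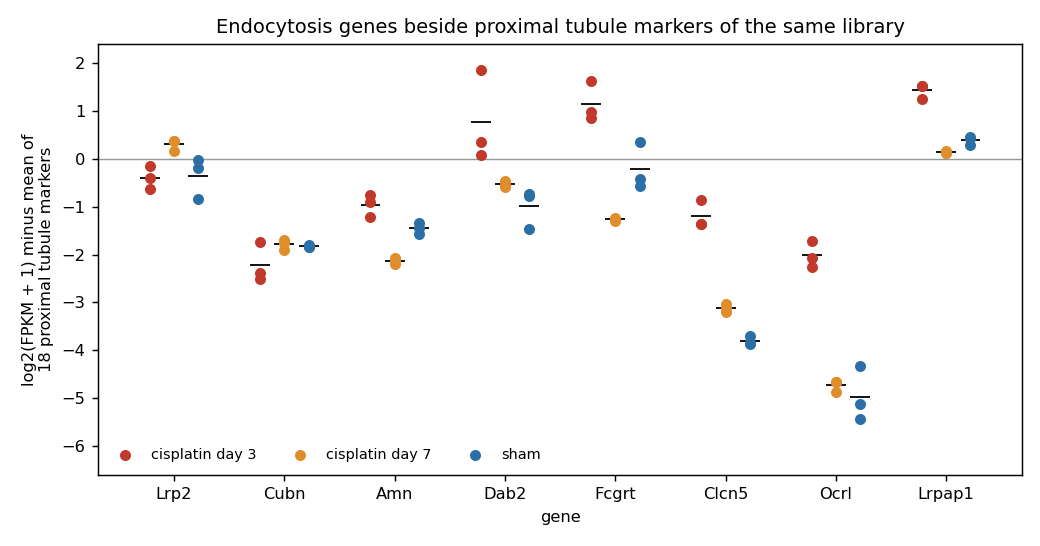
For each gene and library, log2(FPKM + 1) minus the mean of the 18 proximal tubule markers of that library; Cis3d, Cis7d and sham run from left to right within a gene, points are libraries and bars are group means. Lrp2 and Cubn differ by -0.04 and -0.38 between Cis3d and Sham, while Clcn5 and Ocrl stand 2.61 and 2.95 higher in Cis3d than in Sham. The marker mean itself differs by -2.56 between Cis3d and Sham.

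Marker transcripts of injured tubule and of other cell types were followed as well. Sums of FPKM over 8 markers of injured tubule were 8553 to 13271 in Cis3d, 635 to 1969 in Cis7d and 390 to 823 in Sham libraries. Spp1 made up most of each Cis3d sum, at 7699, 11192 and 6822 FPKM in replicates 1, 2 and 3. The list also holds Havcr1 and Lcn2. Of its 7 markers that reached 1 FPKM in more than 1 group, 6 were called higher in Cis3d than in Sham. Sums over 7 neutrophil markers were 30.8 to 109 in Cis3d, 4.55 to 22.7 in Cis7d and 2.74 to 14.6 in Sham. The 6 markers of thick ascending limb and distal tubule summed to 141 to 543, 1354 to 1546 and 1133 to 1635 in the same groups, and those of the collecting duct to 51.4 to 111, 145 to 247 and 140 to 329. All 6 of the first list and 5 of 6 of the second fell in Cis3d against Sham, so lower values there were not limited to the proximal tubule lists. The 6 podocyte markers summed to 46.1 to 96.5, 80.5 to 113 and 91.3 to 108, with 1 of 6 lower. No marker of these lists was at 0 in all libraries, and their part in the results for the 8 genes was not tested.

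The rest of the uptake pathway was described with lists of genes by step. Among all tested genes, 39.3% were called higher and 20.6% lower in Cis3d against Sham. The shares were 19.3% and 10.4% in Cis7d against Sham, and 21.7% and 33.7% in Cis7d against Cis3d. The counts below are to be read beside these shares, and no list was tested against them. Of the pathway genes named here for Cis7d against Sham, Clcn4, Cltc, Eea1, Atp6v1a and Sacm1l were also called after the GC content and length correction, and Clcn3, Appl1, Ap2s1, Rab4a, Atp6v1f, Vldlr, Lrp10, Lamp2, Gaa and Cst3 were not. Of 19 tested genes of the clathrin coat and vesicle entry, 7 rose and 2 fell in Cis3d against Sham (median 0.22), which median-of-ratios scaling turned to 5 higher and 6 lower (median -0.09). In Cis7d against Sham 5 rose and 7 fell (median -0.12), of which the GC content and length correction left 1 higher and none lower. Epn1, an epsin that bends coated membrane, fell in Cis3d by 0.78 ± 0.12 (limma, adjusted p = 0.000501). Cltc, the clathrin heavy chain, rose in Cis7d to 41.0 ± 3.54 FPKM, against 14.5 ± 2.36 FPKM in Sham (limma, adjusted p = 0.00152). Ap2s1, the small subunit of the plasma membrane adaptor complex, was at 28.1 ± 2.36 FPKM in Cis7d and 54.7 ± 6.86 FPKM in Sham and fell by 0.93 ± 0.12 (limma, adjusted p = 0.00177). In Cis7d against Cis3d 1 of the 19 rose and 7 fell, and the 1 was Myo6, the motor that carries uncoated vesicles inward, by 1.07 ± 0.19 (limma, adjusted p = 0.00159).

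Of 21 genes of endosome sorting and recycling, 9 rose and 3 fell in Cis3d against Sham (median -0.07), with 8 higher and 8 lower under median-of-ratios scaling (median -0.38). In Cis7d 9 rose and 2 fell against Sham (median 0.43), with 4 higher and none lower after the GC content and length correction, and 9 rose and 4 fell against Cis3d (median 0.21). Rab5a, which directs fusion of early endosomes, rose in Cis3d to 17.0 ± 0.571 FPKM, against 5.76 ± 0.458 FPKM in Sham (limma, adjusted p = 1.28e-05). Rab4a, which acts in rapid recycling, fell in Cis3d to 6.42 ± 1.86 FPKM, against 19.2 ± 1.49 FPKM in Sham (limma, adjusted p = 0.000115). It was also lower in Cis7d than in Sham, at 12.1 ± 0.763 FPKM (limma, adjusted p = 0.0242), a call lost in 9 of 20 alternatives, among them leaving out any 1 Cis7d library or Sham replicate 2 or 3. The tether Eea1 rose in Cis7d by 1.24 ± 0.13 against Sham (limma, adjusted p = 0.00133). Rab38, a small GTPase linked to receptor trafficking in rat proximal tubule, rose in Cis7d to 6.5 ± 0.48 FPKM, against 1.65 ± 1.01 FPKM in Cis3d (limma, adjusted p = 0.000901). Hgs, which sorts cargo for degradation, fell in Cis7d to 11.9 ± 0.846 FPKM, against 36.1 ± 7.24 FPKM in Cis3d (limma, adjusted p = 8.02e-05).

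Of 21 genes of endosome acidification, mostly subunits of the vacuolar proton pump, 4 rose and 4 fell in Cis3d against Sham (median -0.01), with 1 higher and 9 lower under median-of-ratios scaling (median -0.30). In Cis7d against Sham 9 rose and 3 fell (median 0.35), with 4 higher and 4 lower under that scaling and 3 higher and 1 lower after the GC content and length correction. Against Cis3d, 11 rose and 3 fell in Cis7d (median 0.35). Among the a subunits, which place the pump in a compartment, 2 went in opposite directions, and Atp6v0a2 was not called (0.11 ± 0.20 in Cis3d against Sham, limma, adjusted p = 0.649). Atp6v0a1 rose in Cis3d to 9.78 ± 2.52 FPKM, against 3.68 ± 0.257 FPKM in Sham (limma, adjusted p = 0.000328), and Atp6v0a4, the kidney form, fell to 14.0 ± 3.51 FPKM, against 33.1 ± 8.25 FPKM in Sham (limma, adjusted p = 0.00112). In Cis7d against Cis3d the signs were the other way, 1.91 ± 0.21 for Atp6v0a4 (limma, adjusted p = 0.00011) and -1.03 ± 0.16 for Atp6v0a1 (limma, adjusted p = 0.000804). Within the head of the pump in Cis7d against Sham, Atp6v1a, a catalytic subunit, rose by 1.07 ± 0.14 (limma, adjusted p = 0.00189) and Atp6v1f fell by 0.93 ± 0.14 (limma, adjusted p = 0.00233).

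Of 14 tested phosphoinositide enzymes and Ocrl partners, 5 rose and 4 fell in Cis3d against Sham (median 0.01, and -0.19 under median-of-ratios scaling), 6 rose and 1 fell in Cis7d against Sham (median 0.31), of which the GC content and length correction left 2 higher, and 6 rose and 1 fell in Cis7d against Cis3d (median 0.25). In both Cis7d comparisons 1 of the 6 that rose, Pip5k1b, had passed the filter only through the Cis7d libraries. Pik3c2a, a lipid kinase of clathrin-coated membrane, rose in Cis3d to 5.5 ± 1.27 FPKM, against 1.55 ± 0.167 FPKM in Sham (limma, adjusted p = 0.000113). The phosphatase Sacm1l was at 12.9 ± 1.39 FPKM in Cis7d and 2.2 ± 0.404 FPKM in Sham, a rise of 2.12 ± 0.20 (limma, adjusted p = 0.00127). Pip5k1a, which makes the lipid that Ocrl degrades, fell in Cis7d against Cis3d by 0.89 ± 0.21 (limma, adjusted p = 0.00681).

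Of 11 tested receptors related to megalin, 2 rose and 2 fell in Cis3d against Sham (median 0.03), with 1 higher and 4 lower under median-of-ratios scaling (median -0.22). In Cis7d 2 rose and 2 fell against Sham (median 0.21), with none called after the GC content and length correction, and 5 rose and 1 fell against Cis3d (median 0.46). Lrp1, another very large receptor, was at 2.81, 5.0 and 7.7 FPKM in Cis3d kidneys, at 1.45, 2.05 and 1.14 FPKM in Cis7d kidneys and at 1.8, 1.97 and 1.79 FPKM in Sham kidneys. Every Cis3d value lay above every Sham value, opposite to Lrp2, with a rise of 1.03 ± 0.27 (limma, adjusted p = 0.00956). Lrp1 fell in Cis7d against Cis3d by 1.21 ± 0.27 (limma, adjusted p = 0.00482). Vldlr, a lipoprotein receptor of the same family, rose in Cis7d to 9.47 ± 0.462 FPKM, against 4.48 ± 0.18 FPKM in Sham (limma, adjusted p = 0.00901), and Lrp10 fell to 14.7 ± 2.7 FPKM, against 21.6 ± 3.65 FPKM in Sham (limma, adjusted p = 0.0444), a call lost in 14 of 20 alternatives, among them leaving out any 1 library of these groups. Lrp6, a coreceptor for Wnt, rose in Cis7d over Cis3d by 0.75 ± 0.14 (limma, adjusted p = 0.00167).

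**Figure D4:**
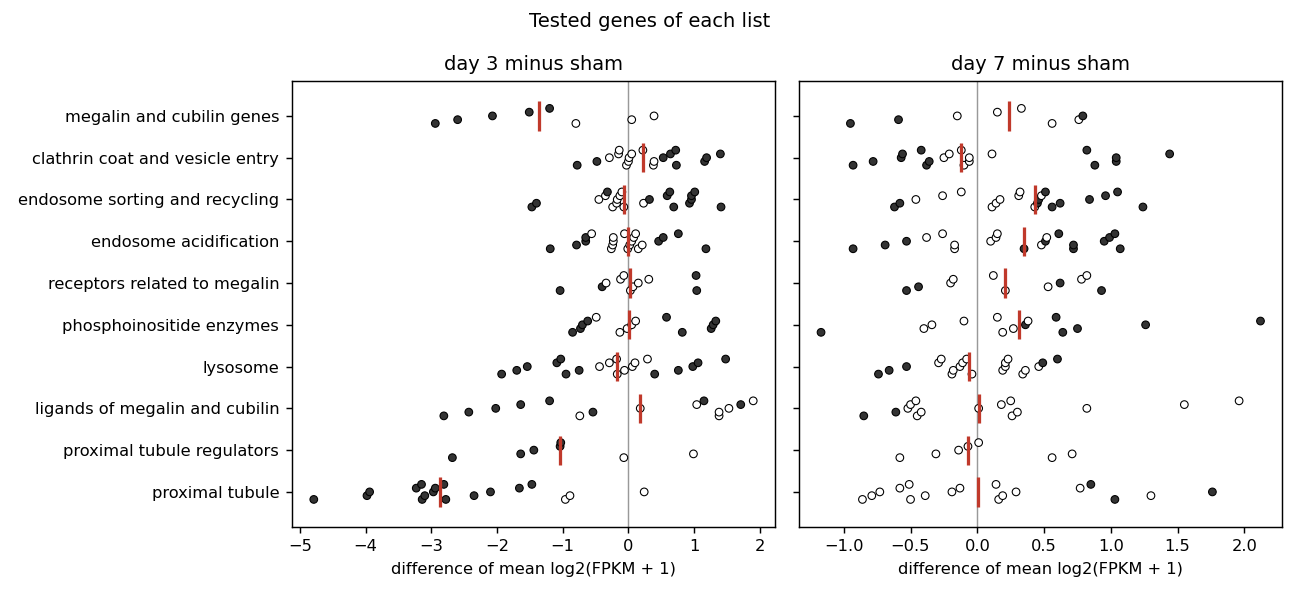
Differences of mean log2(FPKM + 1) for the tested genes of each list, Cis3d minus Sham on the left and Cis7d minus Sham on the right; filled points were called and red bars are list medians. The medians of the 8 megalin and cubilin genes, the proximal tubule regulators and the proximal tubule markers lie at -1.35, -1.04 and -2.87 on the left, and the medians of the clathrin, sorting, acidification, receptor family, phosphoinositide, lysosome and ligand lists lie between -0.18 and 0.22.

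Downstream, of 20 lysosomal genes, 5 rose and 7 fell in Cis3d against Sham (median -0.18), with 4 higher and 11 lower under median-of-ratios scaling (median -0.45). In the other comparisons 2 rose and 3 fell in Cis7d against Sham (median -0.06, with 1 higher and none lower after the GC content and length correction), and 8 rose and 6 fell in Cis7d against Cis3d (median 0.38). Glb1, lysosomal beta-galactosidase, fell in Cis3d to 13.6 ± 6.31 FPKM, against 51.8 ± 8.83 FPKM in Sham (limma, adjusted p = 0.000343), and was at 47.7 ± 4.94 FPKM in Cis7d. Scarb2, a lysosomal membrane protein, rose in Cis3d to 17.4 ± 4.85 FPKM, against 5.54 ± 1.46 FPKM in Sham (limma, adjusted p = 0.000481), and was at 7.31 ± 1.1 FPKM in Cis7d. In Cis7d against Sham the membrane protein Lamp2 rose by 0.60 ± 0.14 (limma, adjusted p = 0.0147, and not called without Cis7d replicate 3 or Sham replicate 2) and Gaa, acid alpha-glucosidase, fell by 0.74 ± 0.10 (limma, adjusted p = 0.00196).

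Some ligands of megalin and cubilin are also transcribed in kidney. Of 15 tested, 2 rose and 6 fell in Cis3d against Sham (median 0.18, positive although more members fell, and -0.15 under median-of-ratios scaling), none rose and 2 fell in Cis7d against Sham (median 0.01, with none called after the GC content and length correction), and 5 rose and 3 fell in Cis7d against Cis3d (median -0.31). Clu, the chaperone clusterin, rose in Cis3d to 257 ± 79.8 FPKM, against 76.3 ± 14.3 FPKM in Sham (limma, adjusted p = 0.00051). Ttr, the thyroxine carrier transthyretin, was at 6.52, 24.9 and 8.34 FPKM in Cis3d kidneys, at 57.1, 48.4 and 76.0 FPKM in Cis7d kidneys and at 82.2, 83.9 and 87.1 FPKM in Sham kidneys. Ttr thus fell in Cis3d by 2.81 ± 0.40 (limma, adjusted p = 0.000401) and rose in Cis7d over Cis3d by 2.31 ± 0.40 (limma, adjusted p = 0.00134). Cst3, cystatin C, fell in Cis7d to 90.0 ± 10.1 FPKM, against 162 ± 5.39 FPKM in Sham (limma, adjusted p = 0.00182). Gc, the vitamin D binding protein, was at 323, 75.5 and 54.2 FPKM in Cis3d kidneys, at 22.04, 52.9 and 23.0 FPKM in Cis7d kidneys and at 49.4, 63.1 and 23.1 FPKM in Sham kidneys. It fell in Cis7d against Cis3d by 1.84 ± 0.67 (limma, adjusted p = 0.0427), where Cis3d replicate 1 was the highest library, and the call was lost in 10 of 20 alternatives, among them without Cis3d replicate 1 or 2, Cis7d replicate 1 or 3 or Sham replicate 1 or 2.

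Of 7 tested transcription factors known to act in the proximal tubule, 5 fell and none rose in Cis3d against Sham (median -1.04). Among these 5, the call of Vdr was lost in 10 of 20 alternatives, the GC content and length correction included. None of the 7 was called in Cis7d against Sham (median -0.07), and 5 rose in Cis7d against Cis3d (median 0.96). Hnf4a, a nuclear receptor needed for proximal tubule maturation, was at 47.1, 17.1 and 20.1 FPKM in Cis3d kidneys, at 164, 145 and 148 FPKM in Cis7d kidneys and at 131, 186 and 195 FPKM in Sham kidneys. It fell in Cis3d by 2.68 ± 0.33 against Sham (limma, adjusted p = 0.000186) and rose in Cis7d by 2.54 ± 0.33 against Cis3d (limma, adjusted p = 0.000294).

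For each of the 8 genes, the 2 tested genes with the most similar course were found by Pearson's r of log2(FPKM + 1) over the 9 libraries. The libraries fall into 3 groups, so these values mostly reflect the group means and are a description without a p. Nearest to Lrp2 were St8sia1, a ganglioside sialyltransferase, and Abat, which breaks down GABA, each at 0.996. Nearest to Cubn were Rab11fip3, an effector of recycling endosomes (0.999), and Slc47a1, a drug and cation extruder of the brush border (0.998). For Amn they were the dynein light chain Dynll2 (0.997) and Slc22a18 (0.995), and for Lrpap1 they were Nat8f6 and Serpinf2, which encodes antiplasmin, each at 0.995. For Dab2 they were Tm7sf3 (0.984) and Fbxo9 (0.975), for Fcgrt Tmem106c (0.979) and the flippase Atp9a (0.976), for Clcn5 Dcaf17 (0.988) and the kinesin Kif21a (0.986), and for Ocrl Tnrc6a (0.973) and Ppp1r3e (0.970). Rab11fip3 was at 7.57 FPKM in Cis3d, 56.1 FPKM in Cis7d and 55.6 FPKM in Sham as group means, with Cis7d and Sham close as for Cubn. St8sia1 was at 0.613, 12.8 and 7.34 FPKM in these groups, with Cis7d above Sham as for Lrp2.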

How the data were processed

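Total RNA of whole kidney was isolated with TRIzol and made into libraries with a directional NEB kit, per the labels' protocols. The authors deposited 1 file for each library, with a value in FPKM for every gene ID, per the file headers. HISAT, StringTie, FastQC 0.10.1 and GRCm38 are named in the submitters' processing notes. No source used here states their settings, the annotation release or the counting strand, and reads of a gene and its antisense partner cannot be told apart. Whole reads could not be recovered from the low values (27.0% to 30.7% of them lay within 0.1 of a whole step), so no count test was run and depth is unknown. FPKM is relative within a library.

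IDs were matched to GENCODE M21 (55144 with a symbol, 241 without). The 13718 genes that reached 1 FPKM in 3 or more of the 9 libraries were tested as log2(FPKM + 1) with limma 3.58.1 in R 4.3.3, a model of 3 group means over all 9 libraries with an eBayes trend. It was tested on simulated data with known changes. p-values rest on the spread between repeats, pooled over the 3 groups and moderated towards a trend over all tested genes. The 8 genes and all lists were chosen with earlier results of these data known. From each pathway list, the called gene with the largest rise and fall per comparison at a group mean of at least 5 FPKM was named, with direct partners of the 8 genes and the 2 genes most alike in course. Some genes that this rule names are not reported here. The alternatives were other pseudocounts, filters, scalings and variance settings, a replicate block, a spline correction for GC content and transcript length, and leaving out each library.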

Additional observations from a re-analysis of the deposited data

How the results depend on the processing

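Each comparison was run under 20 alternatives. The falls of Lrp2, Cubn, Amn, Fcgrt and Lrpap1 in Cis3d against Sham and the rises of Lrp2, Cubn, Amn, Clcn5 and Lrpap1 in Cis7d over Cis3d were called in all 20. Lrp2 ranged between -3.02 and -2.32 in Cis3d against Sham, and Cubn between -3.37 and -2.77. Leaving out 1 library gave 5 to 6 of the 8 genes called in Cis3d against Sham, 2 to 4 in Cis7d against Sham and 5 to 6 in Cis7d against Cis3d, and 7106 to 8221, 2470 to 4719 and 6267 to 7901 of all genes. A filter at 5 FPKM, which left 7692 genes to test, gave 5104 genes called in Cis3d against Sham and 4973 in Cis7d against Cis3d. The GC content and length correction gave 965 genes in Cis7d against Sham and 0 of the 8, and the cause was not tested.

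Among the 8 genes, signs changed only for differences that were not called. Clcn5 in Cis3d against Sham became -0.23 with median-of-ratios scaling, -0.23 with quantile normalization and -0.12 with the GC content and length correction, and lay between -0.07 (without Sham replicate 1) and 0.15 (without Cis3d replicate 2) on leaving out 1 library, with -0.05 without Cis3d replicate 1. Ocrl in Cis7d against Cis3d became 0.08 with median-of-ratios scaling, 0.09 with quantile normalization, and lay between -0.11 and 0.03 on leaving out 1 library, where 0.03 was the value without Cis3d replicate 1. Lrpap1 in Cis7d against Sham became 0.06 on rescaling over nuclear genes, 0.04 with quantile normalization and 0.07 with the GC content and length correction. Cubn in Cis7d against Sham became -0.23 with that correction, and lay between -0.01 (without Sham replicate 1) and 0.26 (without Sham replicate 3) on leaving out 1 library. Dab2 in Cis3d against Sham was called with median-of-ratios scaling, at -1.12 (limma, adjusted p = 0.034). Ocrl in Cis3d against Sham was called in 4 of 19 alternatives, among them rescaling each library to a fixed sum, at 0.55 (limma, adjusted p = 0.0365).

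The share of higher genes among all calls was 65.6% in Cis3d against Sham, and 49.5% with median-of-ratios scaling and 51.2% with quantile normalization. In Cis7d against Sham it was 64.9%, against 47.5% and 52.7% with those settings, 75.2% on rescaling to the fixed sum and 84.8% over nuclear genes. In Cis7d against Cis3d it was 39.2%, against 50.1% and 49.8%.

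Same-numbered libraries of different groups had correlations of their deviations from the group means between -0.05 and 0.24. Differently numbered libraries had values between -0.28 and 0.11. The ranges overlapped, but the highest value, 0.24, was between Cis7d and Sham replicate 3, so a pairing by number could not be settled. With the replicate number as a block, 8212, 3885 and 7540 genes were called in the 3 comparisons, and 6, 2 and 6 of the 8. Depth is unknown, so it could not be said how far low values such as those of Ocrl are limited by counting.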

Other observations

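Transcripts of plasma proteins that megalin and cubilin take up, chosen here after their values were seen, were uneven among the Cis3d libraries. Alb, serum albumin, was at 17.3, 118 and 0.46 FPKM in Cis3d replicates 1, 2 and 3, at 20.8, 18.2 and 17.7 FPKM in Cis7d and at 5.27, 3.33 and 3.87 FPKM in Sham kidneys. Apoa1, the main protein of high-density lipoprotein, was at 5.15, 32.4 and 1.06 FPKM in Cis3d, at 2.72, 3.94 and 3.49 FPKM in Cis7d and at 7.86, 1.62 and 1.1 FPKM in Sham kidneys. Hpx, the heme carrier hemopexin, was at 2.56, 23.7 and 0.19 FPKM in Cis3d, at 4.39, 2.09 and 2.06 FPKM in Cis7d and at 0.44, 0.12 and 0.25 FPKM in Sham kidneys. Cis3d replicate 2 held the highest value of all 9 libraries for each of the 3 genes. None was called in any comparison (limma, adjusted p between 0.0956 for Hpx in Cis3d against Sham and 0.861 for Apoa1 in Cis7d against Sham). In Cis7d the values of Alb and Hpx lay above every Sham library.

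Markers of tubule injury varied within groups as well. Havcr1 was at 402, 141 and 163 FPKM in Cis3d, at 1.04, 58.2 and 1.45 FPKM in Cis7d and at 8.29, 35.5 and 1.5 FPKM in Sham kidneys, so that Cis7d replicate 2 and Sham replicate 2 stood above the others of their groups. In those libraries Lrp2 was at 116 and 82.7 FPKM, each the middle value of its group. Some other markers of the injured tubule list ordered the Sham libraries otherwise. Lcn2 was at 14.9, 2.97 and 1.17 FPKM in Sham replicates 1, 2 and 3, and Krt18 at 44.4, 15.3 and 13 FPKM. Krt8 and Spp1 were also highest in Sham replicate 1, where Lrp2 was at 37.7 FPKM, the lowest of its group. Krt20, Vcam1 and Sox9 stayed below 1 FPKM in Sham. In Cis7d every marker of the list but Krt18 was highest in replicate 2. A relation to Lrp2 was not tested.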
